A study of Caenorhabditis elegans with 7 samples.

Results

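The genes examined were acr-5, del-1, ceh-12 and glr-4, which are known as targets that the homeodomain protein UNC-4 keeps off in A-class motor neurons of C. elegans and that mark the B-class. For glr-4 the study's own annotation is less clear, as given with its values below. The 4 genes were taken by symbol, and every probe set (the group of oligonucleotides that reports 1 transcript on an Affymetrix array) annotated to them was used. This gave 4 of 17118 named genes and 6 of 22548 probe sets, with 1 probe set each for acr-5, del-1 and ceh-12 and 3 for glr-4.

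The embryonic A-class group held 3 arrays of cells sorted for green fluorescence from cultures of embryos that carried unc-4::GFP, and about 90% of the sorted cells were GFP-positive. The reference group held 4 arrays of cells from N2 (wild-type) embryos that were dissociated and cultured alike, sorted only for viability by leaving out cells stained with propidium iodide. Both groups were cultured for 24 hours, and 100 ng of total RNA was amplified and biotin-labeled for each array. The replicates are labeled as biological, and the transgene was present in the A-class cultures only.

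UNC-4 acts with the Groucho corepressor UNC-37. Most of what is known of this pathway comes from VA and VB motor neurons, sister cells that arise after hatching: without UNC-4, VA neurons turn on B-class genes and receive the synaptic inputs of VB neurons. The unc-4::GFP cells of the embryo are other neurons, namely the DA and SAB motor neurons and the pharyngeal neuron I5, in all of which the unc-4 promoter that drove the GFP is itself active. The reference is a mixture of all embryonic cells, in which the DB neurons of the B-class are a small share. The comparison therefore set the A-class against the average embryonic cell, and neither against sorted B-class cells nor against cells without UNC-4. In bulk samples of this kind a lower share of cells with a transcript and less of it per cell cannot be told apart.

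Relative to the reference, none of the 4 genes was lower in the A-class and none was higher at the limits used (limma, adjusted p under 0.01 and at least 1.7-fold). Among all 17118 genes, 2.2% were higher and 3.3% lower by these limits. The same held for each of the 6 probe sets, beside 2.2% higher and 3.46% lower among all 22548. The mean intensity was above the reference for all 4 genes, as it was for 56.1% of all genes. Their median log2 difference was 0.49, and that of all genes was 0.05. By the probe set that represents each gene, del-1 was the only one of the 4 with every A-class array above every reference array, a pattern held by 17.1% of genes. At an unadjusted p under 0.05 in limma, del-1, ceh-12 and glr-4 were higher, as were 18% of all genes. SAM also called none of these genes. This was fixed in advance, since SAM calls kept the 1.7-fold limit, which none of the 4 genes reached.

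**Figure D1:**
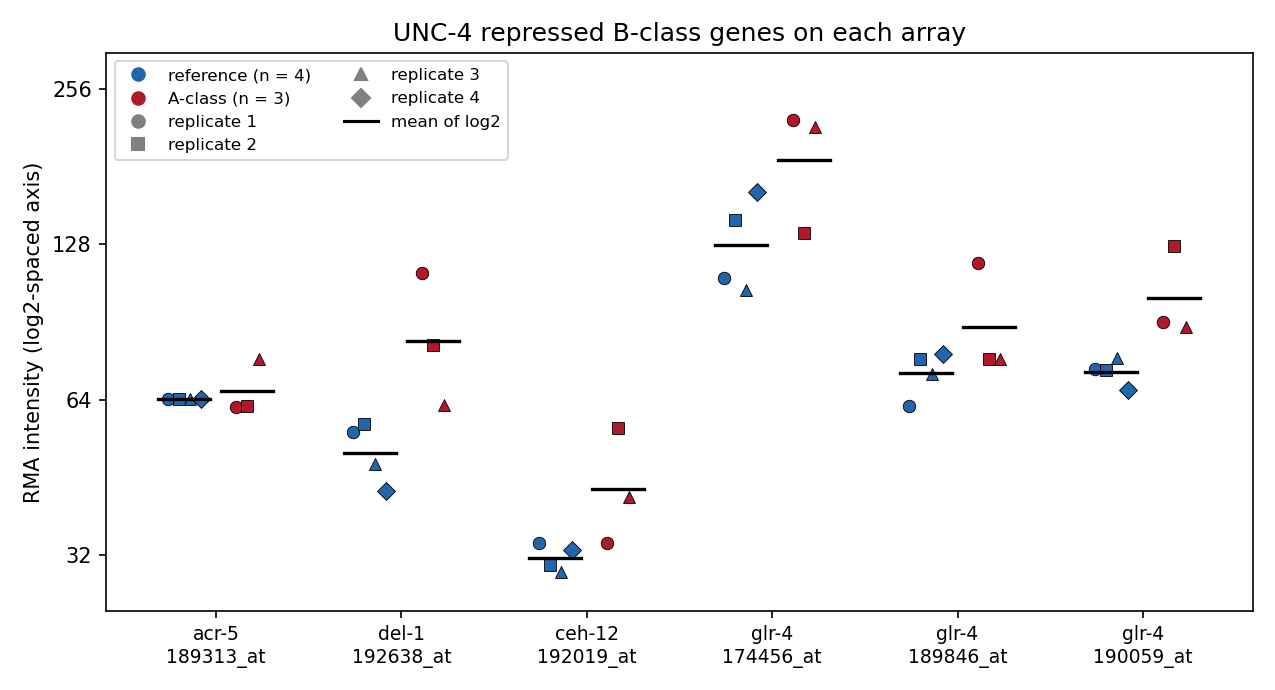
Deposited RMA intensity (vertical axis, log2-spaced) of each probe set of the 4 genes on each array, blue for the reference (n = 4) and red for the A-class (n = 3), with marker shapes for replicate numbers and bars for the mean of the log2 values. The reference points of acr-5 coincide at 64.3, the A-class points of del-1 all lie above its reference points, and the A-class points of ceh-12 and of glr-4 174456_at reach into the reference range.

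Sorted cells carried the transcript of the regulator itself. unc-4 gave intensities of 1289, 1155 and 1386 in A-class replicates 1 to 3 and between 90.1 and 111.0 in the reference (log2 difference 3.72 ± 0.13 SE, adjusted p = 2.13e-05 in limma). Since the cells were sorted by an unc-4 reporter, this checks the labels and is no finding. unc-3, which encodes the COE-type activator of cholinergic motor neuron genes, was also higher (2.16 ± 0.19 SE, adjusted p = 0.000583). The corepressor unc-37 was not called, and its 3 probe sets pointed in different directions: the one that represents the gene had a log2 difference of 0.45 (adjusted p = 0.135), and the others −0.40 and −0.56.

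ceh-12 encodes a homeodomain transcription factor of the HB9/MNX family that promotes VB traits, and it is the regulator among the 4. Reference replicates 1 to 4 gave intensities of 33.8, 30.7, 29.7 and 32.8 for its probe set 192019_at. A-class replicates 1 to 3 gave 33.8, 56.5 and 41.6 (mean 43.98 ± 11.5 SD). A-class replicate 1 had the same deposited value as reference replicate 1, so the groups met there, while the other A-class arrays lay above all 4 reference arrays. The log2 difference was 0.44 ± 0.17 SE (95% interval 0.04 to 0.84, adjusted p = 0.115 in limma), a 1.36-fold higher mean. Without A-class replicate 2 the difference was 0.24 (adjusted p = 0.240 in limma), and without A-class replicate 1 it was 0.61 (adjusted p = 0.0413). The probe set was dim, at percentiles 16.2 to 22.4 of all intensities on the reference arrays and 21.7, 40.98 and 28.6 on A-class replicates 1 to 3. Ranked by mean intensity in 10 equal groups, the probe sets of its group had a median log2 difference of 0.10.

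del-1 encodes a subunit of a DEG/ENaC cation channel and is used as a VB reporter gene. The probe set 192638_at had intensities of 55.5, 57.4, 48.02 and 42.7 in reference replicates 1 to 4. In A-class replicates 1 to 3 they were 112.4, 81.7 and 62.6 (mean 85.6 ± 25.1 SD). The groups did not overlap, but A-class replicate 3 was only a little above the highest reference array, and the A-class arrays spanned 1.80-fold among themselves. The log2 difference was 0.72 ± 0.21 SE (95% interval 0.25 to 1.19), or 1.65-fold, with an adjusted p of 0.0472 in limma. It therefore missed both limits, and 94.4% of all probe sets had a smaller difference. Without A-class replicate 1 the difference was 0.50, and without A-class replicate 3 it was 0.92 (adjusted p = 0.0268 in limma).

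acr-5 encodes a nicotinic acetylcholine receptor subunit and is the usual reporter gene of embryonic and larval B-class motor neurons. All 4 reference arrays had the same deposited intensity for its probe set 189313_at, 64.3. The A-class replicates gave 62.1, 62.3 and 76.7 (mean 67.01 ± 8.35 SD). A-class replicates 1 and 2 lay below the reference and replicate 3 above it, so the groups overlapped. The log2 difference was 0.05 ± 0.12 SE (95% interval −0.21 to 0.32, adjusted p = 0.775 in limma), close to the median of all genes. The interval reached from a 1.16-fold decrease to a 1.25-fold increase. Only 57 probe sets (0.253%) held 1 value on all 4 reference arrays, whereas 8352 held the same value on at least 2 of the 7 arrays. With no spread in the reference, the error of this difference rested on the A-class arrays and on the variance limma shares between probe sets. The difference turned to −0.048 without A-class replicate 3 (adjusted p = 0.798).

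glr-4 encodes an ionotropic glutamate receptor subunit of the non-NMDA type. The study's own annotation places it in SAB, which is part of the unc-4::GFP population, and possibly in DB. The probe set that represents it, 174456_at, had intensities of 110.1, 142.8, 104.5 and 161.8 in reference replicates 1 to 4. It had 222.3, 134.3 and 215.5 in A-class replicates 1 to 3 (mean 190.7 ± 48.97 SD). A-class replicates 1 and 3 lay above the whole reference, and replicate 2 lay below reference replicates 2 and 4. The log2 difference was 0.54 ± 0.23 SE (95% interval 0.02 to 1.06, adjusted p = 0.132 in limma), or 1.46-fold. The probe sets of its intensity group had a median of −0.14. Without A-class replicate 1 the difference was 0.41 (adjusted p = 0.289 in limma), without replicate 2 it was 0.78 (adjusted p = 0.0413), and without replicate 3 it was 0.44 (adjusted p = 0.306).

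The other probe sets of glr-4 gave the same sign, but the A-class arrays did not keep 1 order. With 189846_at, reference replicates 1 to 4 had 62.3, 76.7, 71.8 and 78.6 and A-class replicates 1 to 3 had 117.7, 76.8 and 76.8. Only A-class replicate 1 stood above the reference here (log2 difference 0.30 ± 0.18 SE, adjusted p = 0.270 in limma), and without it the difference was 0.09. With 190059_at, the reference gave 73.4, 73.03, 77.1 and 66.8, and the A-class gave 90.4, 127.0 and 88.6. These groups did not overlap, as for 16.9% of all probe sets with the A-class on top, and A-class replicate 2, the lowest of its group on 174456_at, was the highest (0.47 ± 0.15 SE, adjusted p = 0.0662 in limma). As a description over the 7 arrays, Pearson's r of log2 intensity was 0.74 between 174456_at and 189846_at, 0.17 between 174456_at and 190059_at, and 0.25 between 189846_at and 190059_at. None of the 3 probe sets was called.

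**Figure D2:**
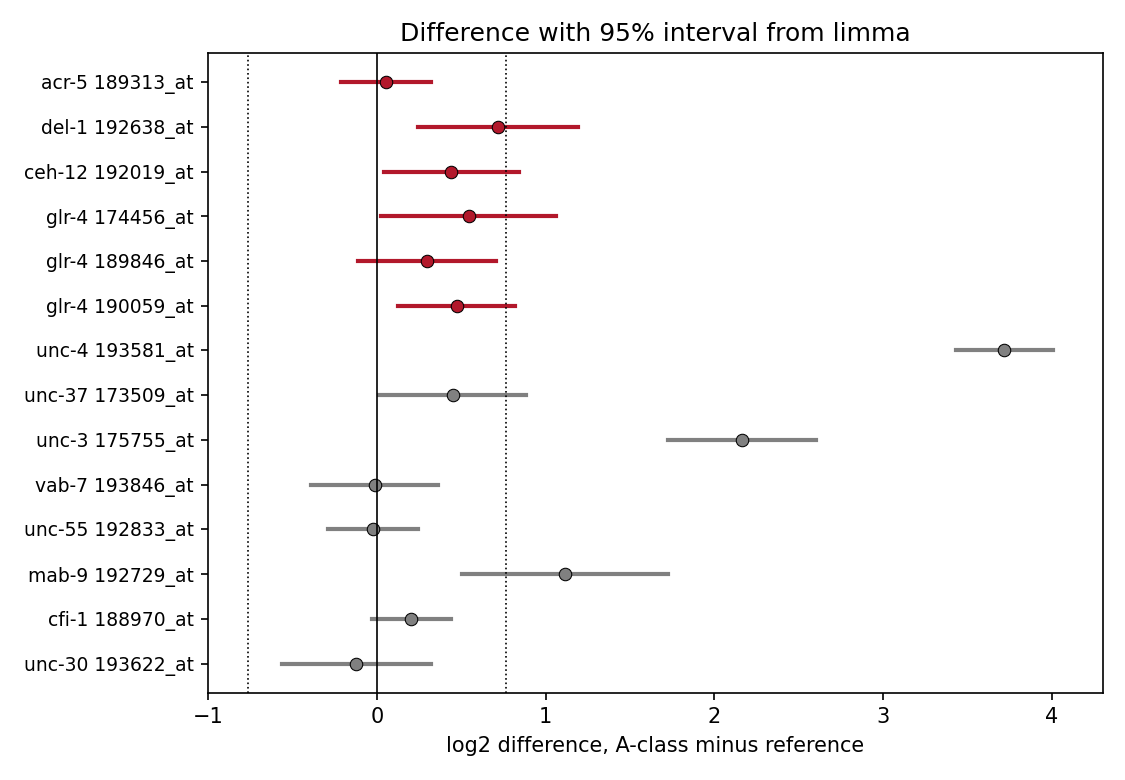
Log2 difference between A-class and reference (horizontal axis) with its 95% interval from limma, in red for each probe set of the 4 genes and in grey for unc-4 and its partners and for other regulators of motor neuron class, with dotted lines at 1.7-fold in either direction. The intervals of del-1, ceh-12, glr-4 174456_at and glr-4 190059_at lie above 0 and below the interval of unc-4, and those of acr-5 and glr-4 189846_at include 0.

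The 4 genes did not share 1 order of the A-class arrays. Replicate 1 was highest for del-1 and for glr-4 on 174456_at and 189846_at, replicate 2 for ceh-12 and glr-4 190059_at, and replicate 3 for acr-5. All hybridization days and chip lots held 1 group each, so neither can be told apart from the group. The fluidics modules (the stations that wash and stain the arrays) could be compared within 2 that held both groups. The log2 difference was 0.56 and 0.97 in these for del-1, 0.54 and 0.14 for ceh-12, 0.35 and 0.64 for glr-4 174456_at, and 0.10 and −0.05 for acr-5. The sign was thus the same in both modules for del-1, ceh-12 and glr-4 and differed for acr-5, with A-class replicate 1 against reference replicate 2 as the sole arrays of the second module.

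**Figure D3:**
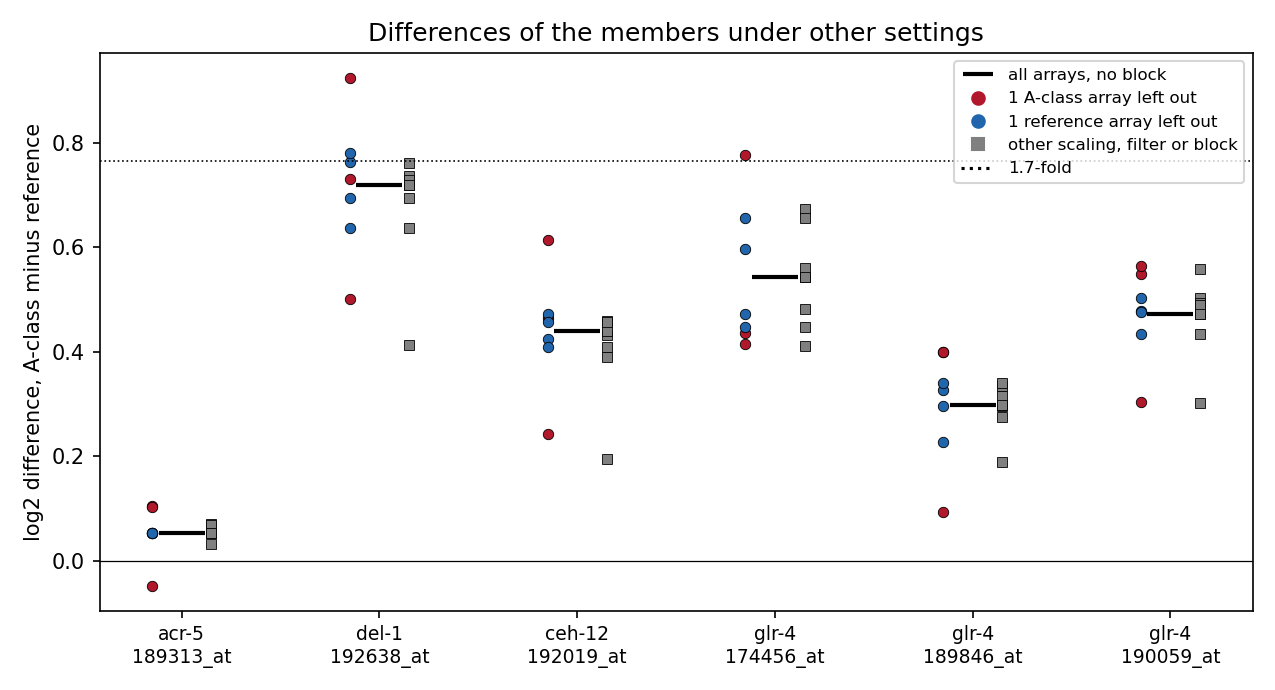
Log2 difference between A-class and reference (vertical axis) of each probe set with all 7 arrays (bar), with 1 A-class array (red) or 1 reference array (blue) left out, and under other scalings, filters or blocks (grey squares), with a dotted line at 1.7-fold. acr-5 falls below 0 in 1 setting, without A-class replicate 3, and every other point is above 0.

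Other regulators of motor neuron class were mostly near the reference, and 0 of 5 were called. vab-7, the even-skipped homolog that sets DB fate, had a log2 difference of −0.01 (95% interval −0.39 to 0.36, adjusted p = 0.960 in limma). unc-55, a nuclear receptor of VD neurons, had −0.02 (adjusted p = 0.916), and unc-30, the homeodomain regulator of GABA motor neurons, had −0.12 (adjusted p = 0.677). cfi-1, an ARID factor, had 0.20 (adjusted p = 0.191), with every A-class array above every reference array. The T-box gene mab-9 had the largest of these differences, with intensities of 108.7, 64.7 and 155.5 in the A-class and 42.7 to 54.9 in the reference. Its groups did not overlap, and it was not called (1.12 ± 0.27 SE, adjusted p = 0.0244 in limma).

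In the families of acr-5, del-1 and ceh-12 other genes passed the test, against 2.2% higher and 3.3% lower among all genes, and nothing particular to a family is read from its count. Of 28 nicotinic receptor genes measured, 3 were higher and 0 lower, with a median log2 difference of 0.27. They were acr-12 (1.47, adjusted p = 0.00213 in limma), unc-38 (1.02, adjusted p = 0.00597) and acr-2 (0.87, adjusted p = 0.00447), all subunits of receptors of cholinergic motor neurons or muscle. acr-5 ranked 18 of these 28. Of 29 DEG/ENaC channel genes, 1 was higher and 2 were lower, with a median of 0.06. unc-8, a channel subunit of motor neurons, rose by 1.13 (adjusted p = 0.0069 in limma), and asic-2 and egas-1 fell by 2.09 and 0.77. del-1 ranked 2 of these 29, behind unc-8.

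Of the 10 ionotropic glutamate receptor genes, none was called, and the median log2 difference was 0.12. glr-4 ranked 2 of them, after glr-5 (1.14, adjusted p = 0.0384 in limma), a gene named here after its values were seen. Of 60 measured ceh homeobox genes, 0 were higher and 3 were lower, with a median of 0.07, and ceh-12 ranked 8. The lower genes were ceh-43, a Distal-less homolog (−1.69, adjusted p = 0.00319 in limma), ceh-37, an Otx homolog (−0.87, adjusted p = 0.00475), and ceh-58 (−0.82, adjusted p = 0.00328). Wnt signaling is known to promote ceh-12 expression in the posterior VA neurons of unc-4 mutants. Of 16 genes of Wnt signaling, the ligand gene cwn-1 was higher (1.44, adjusted p = 0.00188 in limma), and mig-14, which encodes the Wntless homolog needed for Wnt secretion, was lower (−1.61, adjusted p = 0.00283). The other ligand genes, cwn-2, egl-20, lin-44 and mom-2, were not called (0.46, −0.26, −0.45 and −0.14). The median of the 16 was 0.08, and a link of any of them to the level of ceh-12 was not tested.

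**Figure D4:**
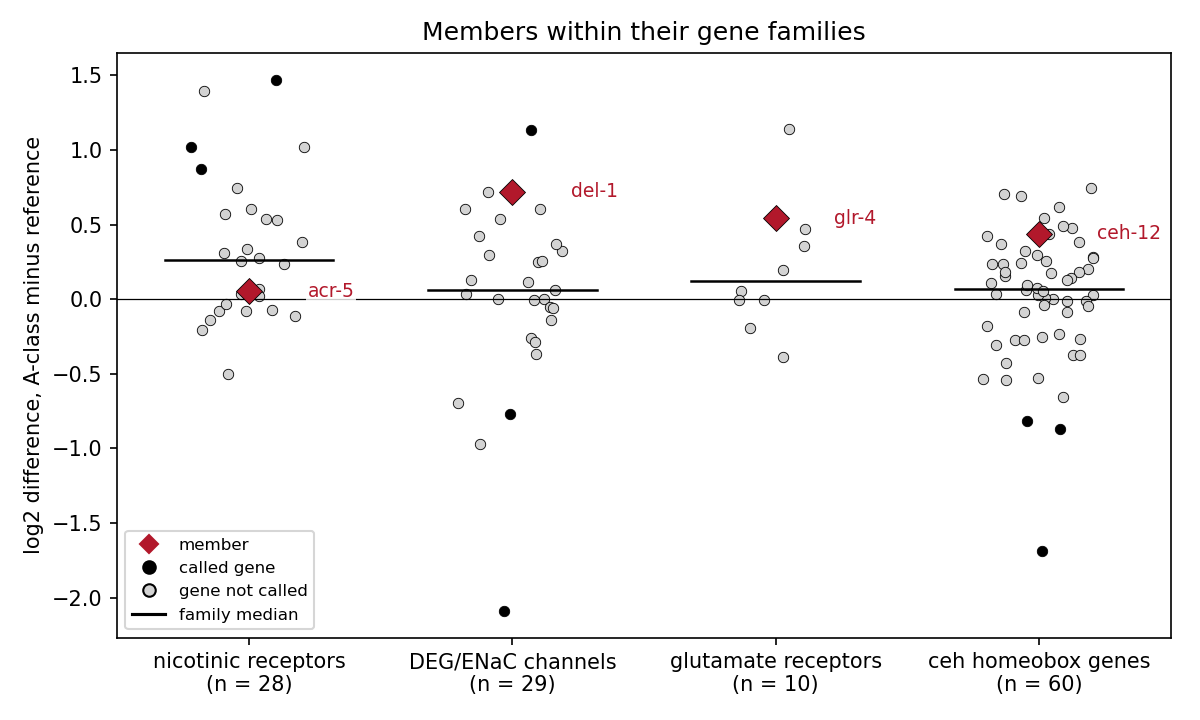
Log2 difference between A-class and reference (vertical axis) of each measured gene in the families of the 4 genes, 1 column per family, with red diamonds for the 4 genes, black points for called genes, grey points for the rest and bars for the family median. del-1 and glr-4 rank 2 in their families, ceh-12 ranks 8 of 60 and acr-5 ranks 18 of 28, below the family median of 0.27.

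Genes whose log2 intensity followed each of the 4 most closely over the 7 arrays were listed by Pearson's r as a measure of likeness. For acr-5 they were K02E10.5, yars-2 and K12B6.8 (r between 0.984 and 0.988), for del-1 str-172, F35H12.1 and W06A7.4 (0.983 to 0.991), for ceh-12 fbxa-86, fbxa-131 and srh-178 (0.990 to 0.994), and for glr-4 hrpf-2, slcr-46.2 and Y71A12B.18 (0.976 to 0.979). None of these 12 neighbours was called in limma. An r above 0.9 was reached by 127 genes for acr-5, 147 for del-1, 787 for ceh-12 and fewer than these for glr-4. The points behind each r are the same 7 arrays in 2 groups.

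Arrays of the reference resembled each other more (R2 of 0.938 to 0.969 between pairs) than A-class arrays did (0.893 to 0.947), and A-class replicate 2 had the narrowest spread of intensities. Beside the cell type markers unc-17, cha-1 and cho-1, the list of 7 cholinergic genes held ace-1 to ace-4, genes of the enzyme that breaks down acetylcholine. Of the 7 genes 1 was called higher and 0 lower, beside 2.2% and 3.3% of all genes. It was unc-17, the vesicular acetylcholine transporter gene (log2 difference 1.67). The markers cha-1 (1.12) and cho-1 (0.44) were not called, but, as for unc-17, their A-class arrays all lay above the reference. Also not called was ace-3, whose A-class arrays all lay below the reference (−0.57, adjusted p = 0.0719 in limma). The mean was above the reference for 5 of the 7. The summed intensity of 5 touch neuron markers was 447 to 544 in the A-class and 944 to 1898 in the reference. Of these 5 genes 1 was called, mec-7, which was lower by the probe set that represents it (−1.72, adjusted p = 0.00642 in limma). Its other probe set was not called, and the groups overlapped there (−0.19, adjusted p = 0.441 in limma). The representing probe set of mec-7 made up most of the summed intensity, and it stood apart in reference replicate 1. Without that array the reference sums were 944 to 1066 and the difference of this probe set was −1.44 (adjusted p = 0.00212 in limma). No gene of the GABA neuron, body wall muscle, pharyngeal muscle, hypodermis or intestine lists was called, but not all were near the reference. In the body wall muscle and hypodermis lists, 3 genes each had every A-class array below every reference array. In these lists 1 gene each had every A-class array above, unc-22 (0.92) and elt-1 (1.05), as did cpr-1 (1.16) of the intestine list. Of all 17118 genes, 2934 lay above and 2327 below in this way. As a guide to background, 14 probe sets of 11 adult yolk and sperm genes, transcripts not known from embryonic cells, had intensities between 12.7 and 141 (median 69.7) over the 7 arrays. None of these was called, but 2 of the 11 genes had every A-class array above every reference array and 0 had every one below. The larger difference of these 2, for spe-9, was 0.83 (adjusted p = 0.0133 in limma), above that of del-1, and the 141 was its value in A-class replicate 3. The arrays of acr-5, del-1, ceh-12 and of 2 glr-4 probe sets all gave intensities inside this range, and glr-4 174456_at passed it on some arrays of both groups. Probe sets differ in brightness for the same amount of RNA, so whether these transcripts were present in A-class cells was not decided by these intensities.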

How the data were processed

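RNA of 3 embryonic A-class and 4 embryonic reference samples was hybridized to Affymetrix C. elegans arrays. RMA-normalized intensity, on a linear scale, is what the authors deposited for every probe set on each array. Which arrays RMA took together, and its version, are not stated in the sources used here. Other deposited records of each hybridization, which hold settings and no signal, gave chip lot, fluidics module and hybridization day.

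log2 was taken of the deposited intensity, with no filter and no pseudocount. Groups came from the sample labels and were compared with limma 3.58.1 (R 4.3.3, lmFit and eBayes, no covariates), and p-values were adjusted by Benjamini-Hochberg across 22548 probe sets. Calls needed an adjusted p under 0.01 and 1.7-fold. Intervals are 95% and unadjusted, and the number of arrays limits precision. A gene was named from probe sets with 1 symbol (20766; 887 had several and 895 none) and represented by the probe set most specific by its suffix, then by the highest mean. Symbols follow the platform annotation, updated by gene number. No coordinates or sequences are given.

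The genes and lists were chosen with earlier results of these data known. Genes named by rule were the 4 genes, the regulators of UNC-4 activity and motor neuron class, and the 3 nearest neighbours of each gene. In each other list the rule took up to 3 called genes per direction. Further genes named from these lists were picked after their values were seen. Alternatives of the test were limma with a trend and robust variance and SAM at a 1% false discovery rate, with the 1.7-fold limit kept. Limits of 1.5-fold or of 0.05 for the adjusted p were set singly, not together. Alternatives of the data were a filter on the dimmest 30%, log2 of intensity plus 50, median centering and a second quantile normalization. Further alternatives were blocks by replicate number and fluidics module, other probe sets of a gene, and leaving out each array. Simulated data with known changes were used to test the limma and SAM steps. A planned search of promoter motifs was not run.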

Additional observations from a re-analysis of the deposited data

Results flagged for a closer look

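The check for an array apart from its group covered the probe sets of the 4 genes and of the genes named by rule from the lists. These were the regulator, family, Wnt signaling and cell type lists, and not every gene of them was checked. For mec-7, a beta-tubulin gene of touch neurons, the probe set that represents it had an intensity of 1436 in reference replicate 1. The gap of this array to the next reference array was 0.831 of the range of the 4 reference arrays. The A-class group of 3 was not tested. Of 26 reference groups checked in this way 1 stood apart, and chance alone sets apart about 1 group in 20. None of the 4 genes had a reference array set apart, and acr-5, with no spread in the reference, could not be checked.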

How the results depend on the processing

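None of the 4 genes was called in either direction under any of the 18 alternatives. As for SAM, this was fixed in advance for several of them. An adjusted p limit of 0.05, trend and robust variance, and the filter on dim probe sets left the differences unchanged, all below 1.7-fold. The 1.5-fold limit left the limma adjusted p-values unchanged, at 0.0472 or more. Differences above 1.7-fold came only with an array left out. These were del-1 without A-class replicate 3 or reference replicate 2, and glr-4 (174456_at) without A-class replicate 2. The log2 differences of del-1, ceh-12 and glr-4 (174456_at) stayed above 0, with ranges over the alternatives run for each of 0.41 to 0.92, 0.19 to 0.61 and 0.41 to 0.78 and limma adjusted p-values of 0.0268 to 0.115, 0.0413 to 0.240 and 0.0413 to 0.306. The low end of each of these ranges came with log2 of intensity plus 50, a scale that shrinks differences, as did the 0.03 given below for acr-5. The other glr-4 probe sets in place of 174456_at gave 0.30 and 0.47. ceh-12 has no value without the dimmest 30% of probe sets, to which it belongs. The difference of acr-5 reversed to −0.048 without A-class replicate 3 and lay between 0.03 and 0.10 otherwise. Leaving out 1 array each gave −0.048 to 0.10 for acr-5, 0.24 to 0.61 for ceh-12, 0.50 to 0.92 for del-1 and 0.41 to 0.78 for glr-4.

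Counts over all 22548 probe sets, 496 higher and 781 lower, moved more: to 899 and 1570 at an adjusted p under 0.05, 239 and 363 with log2 of intensity plus 50, 91 and 131 when blocked by fluidics module (where reference replicate 3, alone in its module, carries no weight), 179 and 257 with the hybridization day as a random block (an alternative chosen after seeing the data), and 176 to 468 and 239 to 769 with 1 array left out. The lowest pair came without reference replicate 2. Except for reference replicate 1, each array left out moved at least 1 of these counts by over 1.5 times. The causes were not tested. The replicate number as a block gave 89 and 112, and reference replicate 4, which has no A-class partner, carries no weight in it. Deviations of same-numbered arrays from their group means had correlations of 0.03, −0.12 and −0.05, within the −0.30 to 0.27 of differently numbered arrays. These values cannot decide whether the numbers pair the samples. Precision is limited by 3 arrays against 4, and for ceh-12 also by low intensity.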
